A study of Mus musculus with 6 samples.

Results

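Small leucine-rich proteoglycans (SLRPs) are short secreted proteins built of leucine-rich repeats, most of which carry sugar chains, and they coat the collagen fibrils of the vessel wall. The family members examined here are Dcn, Bgn and Aspn of class I, Lum, Fmod, Prelp, Omd and Kera of class II, Ogn of class III and Podn of class V. They are 10 of the 55487 genes in the deposited count table, taken by gene symbol with earlier results of these data known. They were followed in bulk RNA sequencing of mouse aortas, 3 from control and 3 from Prdm16 iSM KO mice.

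All 6 animals were C57BL/6 males that carried Myh11-CreERT2, a tamoxifen-inducible Cre driven by the smooth muscle myosin promoter and inherited on the Y chromosome. The iSM KO mice were Myh11-CreERT2+; Prdm16 F/F, with exon 9 of Prdm16 floxed, and the controls were Myh11-CreERT2+; Prdm16 W/W. Both groups received 1 mg tamoxifen per mouse and day for 10 days from 8 weeks of age. Aortas were taken 60 days after a washout of 2 weeks, and the adventitia, the fibroblast-rich outer coat, was stripped off under a stereoscope. Cre acts in vascular smooth muscle cells (VSMCs), whereas the libraries hold RNA of every cell left in the wall. A change in bulk RNA cannot separate fewer cells of a type from less RNA per cell.

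SLRPs work at the surface of collagen fibrils, where the repeat domain binds collagen and limits how fibrils fuse and thicken. Class I and class II members carry chondroitin, dermatan or keratan sulfate chains added in the Golgi, with exceptions such as asporin. Several also bind transforming growth factor β (TGF-β) and cell surface receptors, so the family touches both matrix architecture and growth factor signalling. In arteries, biglycan and decorin are the best studied members, and loss of biglycan function causes an inherited aortic aneurysm syndrome in humans.

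Prdm16 itself was at 183, 223 and 179 CPM (counts scaled to library size with TMM factors) in controls 1 to 3 and at 93.8, 113 and 79.8 CPM in iSM KO 1 to 3. Its log2 fold change was -1.03 (SE 0.14, FDR 0.00265 in edgeR's quasi-likelihood test), so whole-gene counts fell without reaching 0. Reads were counted over the whole gene, and where the remaining reads came from was not tested. Library totals ran from 24911609 to 40460467 estimated counts, and none of the 6 pairs of libraries within a group agreed within sampling noise. VSMC transcripts dominated, with Acta2, Myh11, Tagln and 5 other smooth muscle markers summing to 22500 to 27500 CPM in the controls and 24300 to 26700 CPM in iSM KO. Control 1 stood apart from the other controls for the SLRP genes, being the highest control for each of the 9 that were tested, so results are also given without it.

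In the iSM KO aorta 2 of the 10 SLRP genes rose and 1 fell past a false discovery rate (FDR) of 0.05. Podn rose 4.15-fold and Prelp 1.55-fold, and Omd fell to 0.282 of its control level. Aspn, Fmod, Dcn, Lum, Ogn and Bgn did not pass the test, and Kera was too low to be tested. Each of the 9 tested members had at least 33 counts in every library, so none entered the test through 1 group alone. Among all 16565 tested genes 4.26% rose and 3.30% fell at this FDR. With a fold change over 2 in addition, 1 member was higher (Podn) and 1 lower (Omd), against 1.40% and 1.38% of all tested genes. The groups did not overlap for 5 of the 9 tested members, against 27.9% of all tested genes. The median log2 fold change was -0.65 over the 9 tested members and -0.014 over all tested genes. Without control 1 the median over the members was -0.33, and over the other 11 settings it lay between -0.84 and -0.52.

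**Figure D1:**
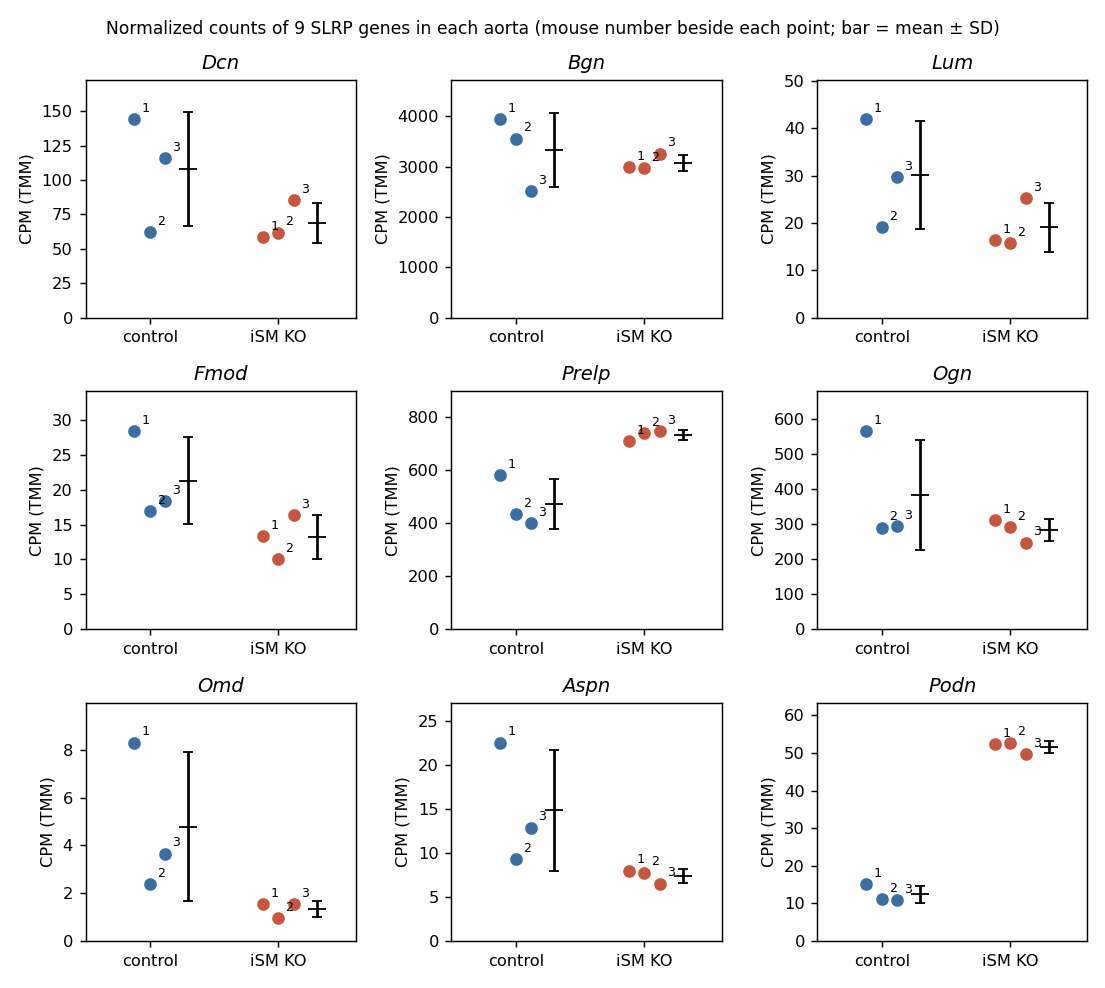
Level in CPM (vertical axes from 0, scaled separately for each gene) of the 9 tested SLRP genes, with control aortas in blue, iSM KO aortas in red, the mouse number beside each point and the mean ± SD (n = 3) as a bar. Podn and Prelp lie higher in all 3 iSM KO libraries, Omd, Aspn and Fmod lower, and the groups overlap for Dcn, Lum, Ogn and Bgn.

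The sequences just upstream of the start sites are shown for the 3 members that passed the test, Podn, Prelp and Omd, and for Aspn, the neighbour of Omd on chromosome 13. Each is the 250 bases before a RefSeq start (GRCm38.p6), written 5′ to 3′ on the gene's strand. Capitals mark matches on either strand to any of 3 short motifs. These are TATAAA, to which the general transcription machinery binds, the core of the SMAD-binding element, written CAGAC, and the GC box of Sp1 factors, which reads GGGCGG.
Podn, chr4:108031955-108032204, minus strand: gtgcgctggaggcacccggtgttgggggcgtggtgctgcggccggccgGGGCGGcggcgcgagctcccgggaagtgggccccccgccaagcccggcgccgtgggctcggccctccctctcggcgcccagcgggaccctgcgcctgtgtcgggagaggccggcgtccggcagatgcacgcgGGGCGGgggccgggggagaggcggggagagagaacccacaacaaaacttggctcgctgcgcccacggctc
Prelp, chr1:133921402-133921651, minus strand: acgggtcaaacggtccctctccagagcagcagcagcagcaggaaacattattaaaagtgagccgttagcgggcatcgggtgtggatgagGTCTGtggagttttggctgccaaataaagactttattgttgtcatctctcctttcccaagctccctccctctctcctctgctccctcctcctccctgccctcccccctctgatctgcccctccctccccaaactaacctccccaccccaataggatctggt
Omd, chr13:49582212-49582461, plus strand: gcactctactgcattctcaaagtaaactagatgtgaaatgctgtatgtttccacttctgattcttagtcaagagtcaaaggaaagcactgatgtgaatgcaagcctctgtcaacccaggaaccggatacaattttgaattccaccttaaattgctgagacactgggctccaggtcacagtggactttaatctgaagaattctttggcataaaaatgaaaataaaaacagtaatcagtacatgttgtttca
Aspn, chr13:49544193-49544442, plus strand: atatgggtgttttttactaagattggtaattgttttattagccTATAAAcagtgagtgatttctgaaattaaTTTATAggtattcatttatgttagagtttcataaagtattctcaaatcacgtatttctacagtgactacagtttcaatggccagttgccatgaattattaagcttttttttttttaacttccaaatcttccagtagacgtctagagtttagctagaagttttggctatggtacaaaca

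The Podn window was 78.0% G and C with 32 CpG dinucleotides, and 97.9% of 32851 RefSeq windows of the same length had a lower GC content. Prelp stood near the middle at 55.6% GC with 5 CpGs, where the median window had 52.4% and 6. Omd had 38.4% GC and 1 CpG, and Aspn 30% GC and 2 CpGs, with 9.05% and 1.47% of windows below them. Whether GC content goes with the direction of change was not tested. Optc, a family gene that fell, had 56.8% GC, and the window of Bgn, which did not pass the test, had 64.4%. The windows of Fmod and Ogn had 51.2% and 42%, and neither gene passed the test. The window of Ecm2, another family gene that fell, had 40.0%. The Podn window held 2 GC boxes, the Aspn window 2 TATAAA matches, the Prelp window 1 CAGAC match and the Omd window none of these letters. Of all windows, 32.7% held a GC box, 12.4% TATAAA and 42.2% CAGAC. The CArG box, the element bound by serum response factor in smooth muscle genes, was in 1.47% of windows and in none of the member windows. A second RefSeq start of Podn had an upstream window of 64.0% GC with 7 CpGs and none of these motifs. Windows were found for 8 of the 10 members, the exceptions being Dcn and Lum. A match to such short letters describes the window and is not a binding site.

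Podn encodes podocan, the class V member, a collagen-binding SLRP that has been described as restraining smooth muscle cell growth in injured arteries. It lies on chromosome 4 (ENSMUSG00000028600, chr4:108014791-108096445, minus strand, GRCm38), 46.2 Mb from Prdm16. It was at 15.1, 11.2 and 10.9 CPM in the controls and at 52.3, 52.8 and 49.8 CPM in the iSM KO libraries. Every iSM KO library was more than 3 times the highest control, and the iSM KO values lay close together. The means were 12.4 ± 2.31 and 51.6 ± 1.61 CPM (SD, n = 3), and the log2 fold change was 2.05 (SE 0.13, 95% interval 1.77 to 2.34, edgeR FDR 5.46e-05). By p-value it ranked 17 among the 16565 tested genes. The call held under all 12 other settings, with log2 fold changes from 1.97 to 2.22, the highest of these without control 1.

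Podn shares its interval with the longer neighbour Scp2, a lipid transfer protein gene on the same strand, without a shared exon base in GENCODE release 21. Scp2 ran from 45.5 to 61.1 CPM over the 6 libraries, with a log2 fold change of -0.10 (SE 0.11, edgeR FDR 0.626).

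Prelp encodes a class II SLRP with a basic amino-terminal region that binds heparan sulfate and is thought to tie basement membranes to collagen. It lies at chr1:133910304-133921414 on the minus strand (ENSMUSG00000041577). It was at 581, 435 and 402 CPM in the controls and at 712, 741 and 749 CPM in iSM KO. The groups did not overlap, although control 1 stood closer to the iSM KO libraries than the other controls did. The means were 473 ± 95 and 734 ± 19.4 CPM, and the log2 fold change was 0.63 (SE 0.14, 95% interval 0.33 to 0.94, edgeR FDR 0.0239). With 1 library left out the log2 fold change stayed between 0.53 and 0.82, and FDR passed 0.05 only without control 1 (0.82, FDR 0.00367). Without control 2, control 3, iSM KO 1, iSM KO 2 or iSM KO 3 the FDR was 0.0566, 0.0567, 0.0682, 0.0994 and 0.0593. Prelp was the only member with fractional counts, and the antisense gene Gm15851, at 0.312 to 0.955 CPM, shares 350 exon bases with it.

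Omd encodes osteomodulin, also called osteoadherin, a keratan sulfate-bearing class II member best known from bone. It lies at chr13:49582462-49592822 on the plus strand (ENSMUSG00000048368). It was at 8.3, 2.37 and 3.65 CPM in the controls and at 1.55, 0.946 and 1.53 CPM in iSM KO, that is 278, 91 and 87 against 63, 33 and 56 counts. The groups did not overlap, and the 3 controls were widely spread, with control 1 at 2.76 times the mean of the other two. The means were 4.77 ± 3.12 and 1.34 ± 0.343 CPM, and the log2 fold change was -1.82 (SE 0.44, 95% interval -2.83 to -0.82, edgeR FDR 0.0404). Without control 1 the log2 fold change was -1.14 with FDR 0.0848, and without control 2 it was -2.16 with FDR 0.014. Without control 3, iSM KO 1, iSM KO 2 or iSM KO 3 the FDR was 0.0732, 0.0979, 0.156 and 0.0732. In limma-voom the FDR was 0.0992.

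**Figure D2:**
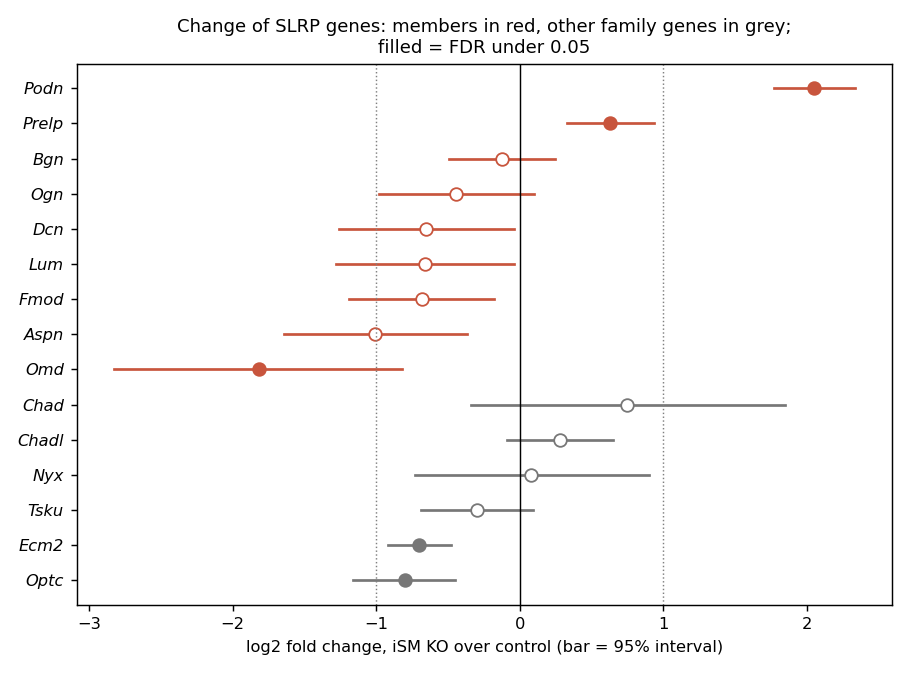
Log2 fold change, iSM KO over control, with its 95% interval, of the 9 tested members in red and of 6 other tested family genes in grey, filled where the edgeR FDR was under 0.05, with dotted lines at a fold change of 2. Podn at 2.05 and Prelp at 0.63 stand to the higher side, Omd at -1.82 to the lower side, the intervals of Bgn and Ogn include 0, and Ecm2 and Optc are the filled grey points.

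Aspn encodes asporin, a class I protein with a run of aspartate residues in place of the usual chain attachment site, known as an inhibitor of TGF-β in cartilage. It lies at chr13:49544443-49567565 on the plus strand. It was at 22.6, 9.29 and 12.9 CPM in the controls and at 8, 7.79 and 6.52 CPM in iSM KO. The groups did not overlap, but control 2 stood only slightly above iSM KO 1. The log2 fold change of -1.01 (SE 0.28, 95% interval -1.64 to -0.37) had an edgeR FDR of 0.0667. Without control 1 it was -0.56 with FDR 0.105, and without control 2 it was -1.26 with FDR 0.0155.

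Fmod encodes fibromodulin, a keratan sulfate-bearing class II member that guides collagen fibril assembly and crosslinking. It lies at chr1:134037254-134048277 on the plus strand. It was at 28.4, 16.9 and 18.4 CPM in the controls and at 13.4, 10 and 16.3 CPM in iSM KO. The groups did not overlap, with iSM KO 3 just under control 2. The log2 fold change was -0.68 (SE 0.22, 95% interval -1.19 to -0.18, edgeR FDR 0.111), and without control 1 it was -0.41 with FDR 0.289.

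Dcn encodes decorin, the class I member that binds type I collagen and TGF-β. It lies at chr10:97479609-97518143 on the plus strand. It was at 144, 62.3 and 116 CPM in the controls and at 58.6, 61.9 and 85.5 CPM in iSM KO, so the groups overlapped through control 2. The log2 fold change was -0.65 (SE 0.27, 95% interval -1.26 to -0.04, edgeR FDR 0.20). Without control 2 it was -0.92 with FDR 0.0169, and across the 6 fits without 1 library it ranged from -0.92 to -0.36, the latter without control 1.

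Lum encodes lumican, a class II keratan sulfate proteoglycan needed for the ordered fibrils of the cornea. It lies next to Dcn at chr10:97565128-97572703 on the plus strand. It was at 41.9, 19.1 and 29.7 CPM in the controls and at 16.4, 15.8 and 25.2 CPM in iSM KO. The order of the libraries was close to that of Dcn, and again control 2 and iSM KO 3 made the groups overlap. The log2 fold change was -0.66 (SE 0.27, 95% interval -1.28 to -0.04, edgeR FDR 0.199), and without control 2 it was -0.91 with FDR 0.0469. Without control 1 it was -0.33 with FDR 0.493.

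Ogn encodes osteoglycin, also called mimecan, the class III member found throughout connective tissue. It lies at chr13:49608046-49624501 on the plus strand. It was at 567, 291 and 295 CPM in the controls and at 312, 292 and 248 CPM in iSM KO. Control 1 alone stood apart, and controls 2 and 3 averaged 1.03 times the iSM KO mean. The log2 fold change was -0.44 (SE 0.24, 95% interval -0.98 to 0.10, edgeR FDR 0.324), and without control 1 it was -0.04.

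Bgn encodes biglycan, the class I proteoglycan that binds collagen and also Toll-like receptors, and lies at chrX:73483602-73495933 on the plus strand. It was by far the most abundant member, at 3940, 3560 and 2520 CPM in the controls and at 2990, 2970 and 3260 CPM in iSM KO. The iSM KO values fell inside the range of the controls. The means were 3340 ± 735 and 3070 ± 164 CPM, with a log2 fold change of -0.12 (SE 0.16, edgeR FDR 0.701). The 95% interval of the log2 fold change, -0.49 to 0.25, leaves out a doubling or a halving, and without control 1 the log2 fold change was 0.02.

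Kera encodes keratocan, a class II member of the cornea, and lies at chr10:97606879-97613692 on the plus strand. It had 1 count in control 1, 1 count in iSM KO 3 and 0 in the other 4 libraries. A count of 0 allows up to 3 counts, which is 0.0736 to 0.126 CPM at the depth of these libraries, and covers counting error only. Kera was thus not detectable as different between groups at this depth.

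Divided by the length of the coding transcript, the levels of the members lay far apart. In controls Bgn stood at 1380 ± 304 CPM per kb, followed by Ogn at 150 ± 61.6, Prelp at 131 ± 26.3 and Dcn at 61.2 ± 23.7. Lum (12.3 ± 4.65), Fmod (6.82 ± 2.01), Aspn (6.41 ± 2.95), Podn (3.92 ± 0.729) and Omd (2.12 ± 1.39) followed in CPM per kb, each overlapping its neighbour in that order. Ogn and Prelp also overlapped, and Ogn was above Prelp in 2 of 3 controls. In iSM KO the order was Bgn (1270 ± 67.6), Prelp (203 ± 5.38), Ogn (111 ± 12.7), Dcn (39.1 ± 8.35) and Podn (16.3 ± 0.507), then Lum (7.81 ± 2.14), Fmod (4.24 ± 1.01), Aspn (3.19 ± 0.345) and Omd (0.597 ± 0.152). Podn was thus at place 8 in controls and place 5 in iSM KO, and Prelp at places 3 and 2. With the merged exons of all isoforms as the length, Dcn was at 18.4 CPM per kb in controls and 11.8 in iSM KO, and Podn at 2.91 and 12.1, which put Podn at place 4 in iSM KO with a range that overlapped that of Dcn. With the coding transcript as the length, only Fmod and Aspn overlapped among the iSM KO neighbours.

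The levels of the 10 genes summed to 2140, 1760 and 1360 CPM per kb in the controls and to 1620, 1610 and 1740 in iSM KO, so the groups overlapped in total. Bgn made up 76.2 to 83.5% of that sum in controls and 76.2 to 77.7% in iSM KO. The share of Prelp was 7.51, 6.83 and 8.15% in the controls and 12.2, 12.7 and 11.9% in iSM KO. The share of Podn was 0.222, 0.201 and 0.253% in the controls and 1.02, 1.03 and 0.905% in iSM KO. With merged exons as the length the share of Bgn was 59 to 68.8% in controls and 57.8 to 60.5% in iSM KO, that of Prelp 14.2 to 16.2% and 23.3 to 24.4%, and that of Podn 0.309 to 0.373% and 1.32 to 1.47%. The shares of Prelp and Podn did not overlap between groups with either length, and they follow from the levels above rather than adding a separate measurement.

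Most of these genes sit in small clusters of SLRP genes, which allowed neighbours to be compared inside each library. On chromosome 13 Ecm2, Aspn, Omd and Ogn lie on 1 strand within 119.7 kb. All 4 had negative log2 fold changes, and Omd and Ecm2 passed the FDR. Ecm2, a relative of the SLRPs with leucine-rich repeats, averaged 146 ± 15.2 CPM in the 3 controls against 89.7 ± 6.61 CPM after Prdm16 loss (log2 fold change -0.70, SE 0.10, edgeR FDR 0.00343), and passed under all 12 other settings. The log2 ratio of Omd to Ogn was -6.08, -6.91 and -6.31 in the controls and -7.60, -8.18 and -7.28 in iSM KO. That of Aspn to Ogn was -4.64, -4.96 and -4.51 against -5.27, -5.22 and -5.24. Omd and Aspn were thus lower relative to Ogn in every iSM KO library than in any control, by 1.26 and 0.54 on the log2 scale. The ratio of Aspn to Omd was 0.72 higher in iSM KO on the log2 scale, again without overlap. All 3 of these genes lie inside Cenpp, a centromere protein gene on the opposite strand that was at 0.13 to 0.567 CPM and shares 7 exon bases with Aspn and 0 with Omd and Ogn.

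On chromosome 1 Optc, Prelp and Fmod lie within 151.1 kb, and their directions were mixed. Optc, which encodes opticin, a class III protein of the vitreous, averaged 33.2 ± 7.47 CPM in the 3 controls against 19.1 ± 1.35 CPM in iSM KO (log2 fold change -0.80, SE 0.16, edgeR FDR 0.0162). Without control 1, iSM KO 1 or iSM KO 2 its FDR was 0.0569, 0.0515 and 0.0602. Prelp, next to it on the same strand, rose. The log2 ratio of Fmod to Prelp was -4.35, -4.68 and -4.44 in the controls and -5.73, -6.20 and -5.52 in iSM KO, a difference of -1.32.

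On chromosome 10 Dcn, Lum, Kera and Epyc lie within 202.8 kb. The log2 ratio of Dcn to Lum was 1.78, 1.70 and 1.97 in the controls and 1.84, 1.96 and 1.76 in iSM KO. This difference of 0.04 was smaller than the spread between replicates (exact permutation p = 0.8, adjusted 0.8). For each of the other 4 neighbour ratios the two-sided exact permutation p was 0.1 and 0.125 after adjustment over the 5 pairs, and 0.1 is the smallest value that 3 against 3 allows.

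**Figure D3:**
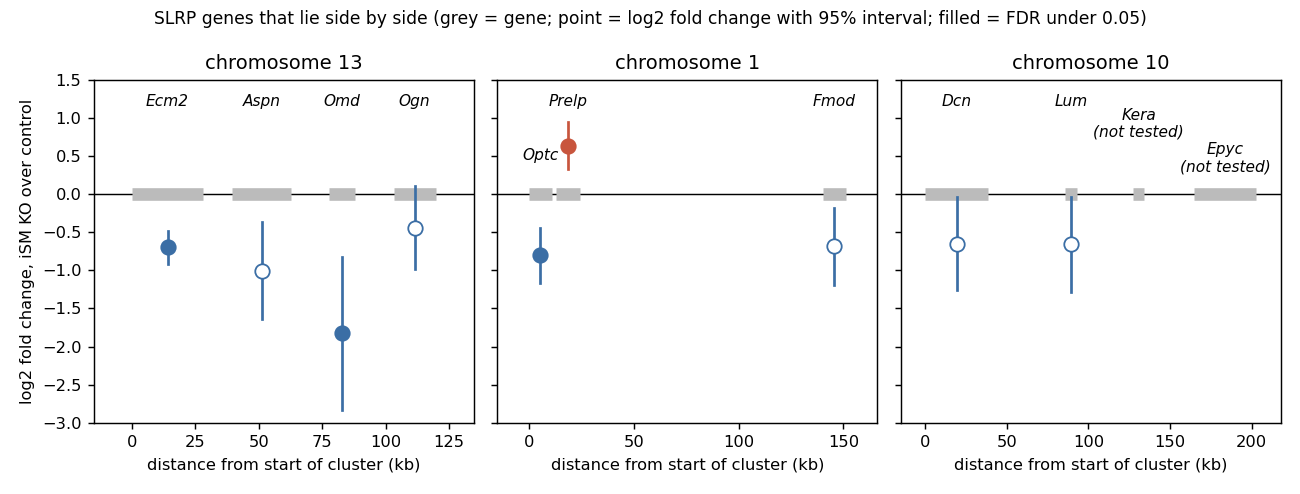
The 3 clusters of SLRP genes, with distance from the start of the cluster in kb on the horizontal axis, genes as grey bars and the log2 fold change of each tested gene with its 95% interval. On chromosome 13 all 4 points lie below 0, on chromosome 1 Prelp at 0.63 lies above 0 between Optc and Fmod below, and on chromosome 10 Dcn and Lum lie at nearly the same value.

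The members also varied together within the control group. Control 1, the highest control for all 9 tested members, was the highest control for 32.7% of all tested genes. Its level over the mean of the other controls ranged from 1.3 for Bgn to 2.76 for Omd. The coefficient of variation of the 9 members ran from 18.6 to 65.4% in controls and from 2.65 to 27.4% in iSM KO, and it was the smaller in iSM KO for each of the 9. Over 16888 to 17769 genes per pair, controls also differed more from each other than iSM KO libraries did. The chi-square per degree of freedom, which grows with such disagreement, was 45.33 to 67.85 between controls and 11.73 to 18.73 within iSM KO. The smaller spread in iSM KO was thus not limited to the members. With control 1 set aside, the mean of controls 2 and 3 was 2.24 times the iSM KO mean for Omd, 1.49 times for Aspn, 1.34 times for Fmod, 1.3 times for Dcn and 1.28 times for Lum.

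**Figure D4:**
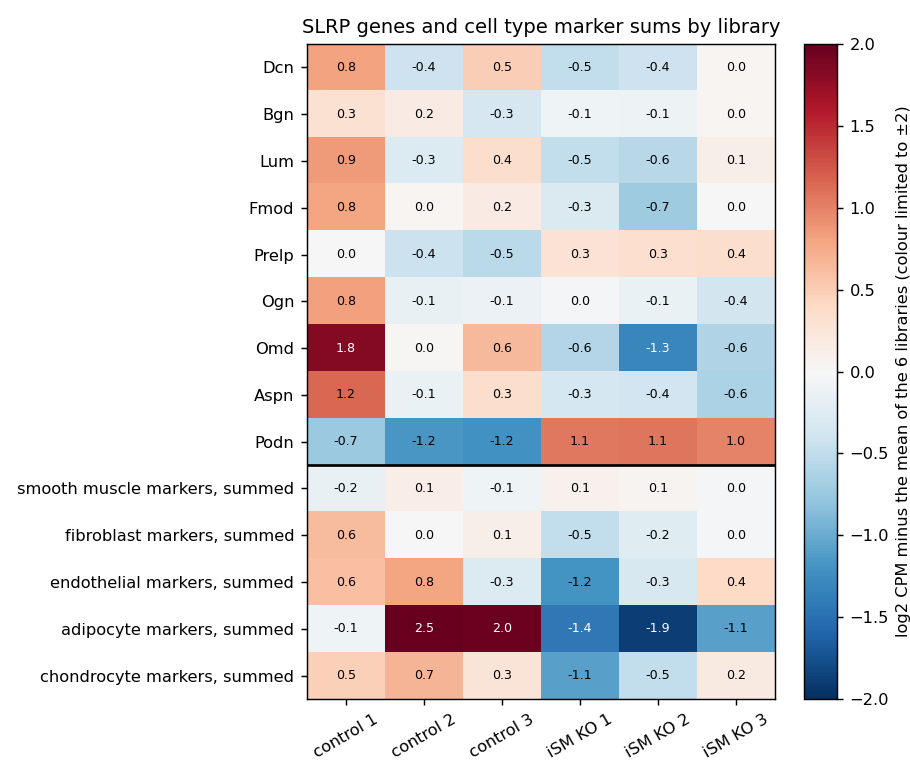
Log2 CPM of each tested SLRP gene (upper rows) and of 5 summed marker lists (lower rows) in each library (columns), as the difference from the row's mean over the 6 libraries, with red above and blue below that mean and colours limited to 2 log2 units either way. Control 1 is the highest control in each of the 9 SLRP rows and in the fibroblast row, and the lowest in the adipocyte row.

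Cell type markers moved beside some of these values. The 8 fibroblast markers summed to 297, 192 and 209 CPM in the controls and 137, 163 and 188 CPM in iSM KO. Of the 8, 2 fell past FDR 0.05, Clec3b and Scara5. For Scara5 the FDR was 0.0824, 0.0847, 0.115 and 0.136 without control 1, control 3, iSM KO 1 and iSM KO 2. In limma-voom it was 0.0713. Mfap5 went the other way without passing the test (log2 fold change 0.18, edgeR FDR 0.444). The median log2 fold change of the 8 was -0.78, and 7 of the 8 were highest in control 1 among the controls. No marker of the list was at 0 in all libraries. The part of the fibroblast markers in the values of any member, whether higher or lower in iSM KO, was not tested. No member, Podn and Prelp included, was assigned to a cell type here.

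Of the 6 tested chondrocyte markers, Acan, Sox9, Comp and Hapln1 fell, and the sum of the 7 listed was 228 to 305 CPM in the 3 controls and 90.2 to 216 CPM in iSM KO. The largest part of that sum was Cytl1, which did not pass the test (edgeR FDR 0.462). Cytl1 was at 153, 181 and 99.4 CPM in the controls and at 45.9, 90.5 and 163 CPM in iSM KO. Of the 6 tested adipocyte markers 5 fell, with sums of 30.3 to 185 and 8.77 to 15.2 CPM, but here control 1 was the lowest control. Endothelial (444 to 925 and 233 to 707 CPM) and macrophage (30.7 to 35.1 and 12.5 to 36.7 CPM) sums overlapped between groups, with 0 of 7 markers past the FDR in each, as did Schwann (4.92 to 7.61 and 5.13 to 10.8 CPM), mesothelial (0.418 to 1.25 and 0.0491 to 2.74 CPM) and tendon sums (11.2 to 20 and 12.9 to 18.1 CPM). The cardiomyocyte sum was 114 to 143 CPM in the 3 controls and 153 to 206 CPM in iSM KO, nearly all of it Ryr2, a calcium release channel gene (112, 142 and 128 against 183, 206 and 152 CPM, edgeR FDR 0.0459), while Myh6, Myl2, Myl7 and Nppa were at 0 to 1.79 CPM. Of the 8 smooth muscle markers, Myocd and Des rose and none fell past the FDR. The part of these markers in the SLRP values was not tested.

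Podn passed the FDR in 12 of 12 settings, Prelp in 7, Omd in 6, Aspn in 3, Fmod, Dcn and Lum in 2 each, and Ogn and Bgn in 0. The direction of Podn, Prelp, Omd, Aspn, Fmod, Dcn, Lum and Ogn was the same in all 12, and that of Bgn in 11.

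**Figure D5:**
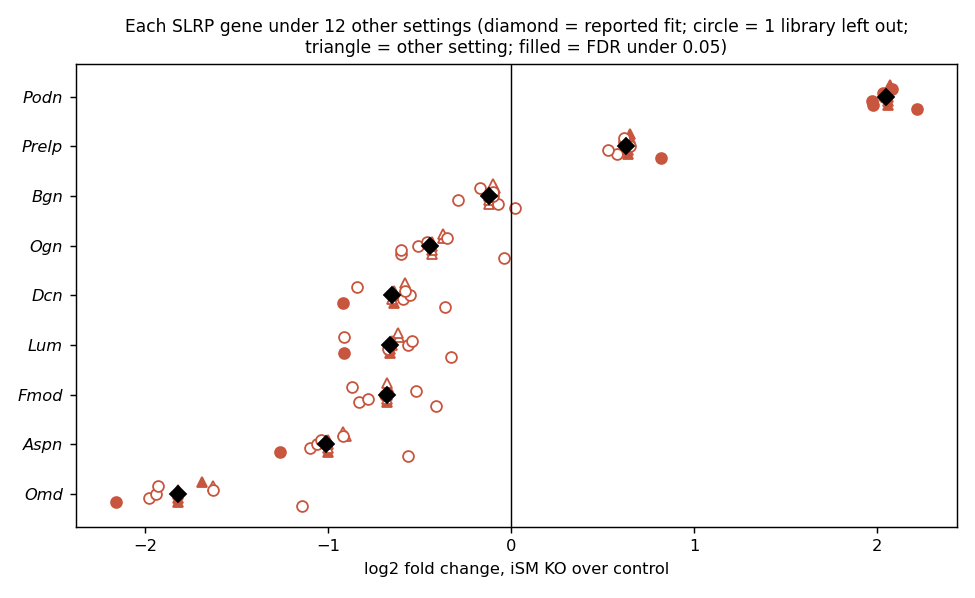
Log2 fold change of each tested SLRP gene under the reported fit (diamond), with 1 library left out (circles) and under the 6 remaining settings (triangles), circles and triangles being filled where the FDR was under 0.05. Podn stays between 1.97 and 2.22, while Omd spreads from -2.16 to -1.14 and Bgn crosses 0.

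The tested genes whose pattern over the 6 libraries was most like that of a called member were found from the root mean square difference of centred log2 CPM. For Podn they were Col14a1, a collagen of fibril surfaces (0.074), the unnamed gene Gm5532 (0.095) and Tnfaip8l3 (0.13), with log2 fold changes of 2.11, 2.23 and 1.92. For Prelp they were Rcan2 (0.042), Gnao1 (0.055) and Dsp (0.065), with log2 fold changes of 0.62, 0.64 and 0.70. For Omd the likeness was looser, with Scara5, itself 1 of the fibroblast markers, at 0.284, Lzts1 at 0.295 and Xlr at 0.34. Lzts1 and Xlr did not pass the test (edgeR FDR 0.0509 and 0.0505). Fold changes near that of the member follow from choosing genes this way and add no separate result.

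The remaining family and the enzymes and partners of SLRPs were taken from fixed lists. Of 8 further SLRP family genes 6 were tested, of which Ecm2 and Optc fell and none rose, with a median log2 fold change of -0.11. Epyc and Podnl1 were too low to be tested.

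Of 22 genes that build chondroitin and dermatan sulfate chains 21 were tested, and 4 rose and 1 fell, with a median log2 fold change of -0.03. Xylt1, the xylosyltransferase that starts each chain on its core protein, was at 21.9, 22.9 and 19.9 CPM in the controls and 44.6, 53.1 and 43.7 CPM in iSM KO. Its groups stood far apart, with a log2 fold change of 1.13 (SE 0.10, edgeR FDR 0.000384). Chst3, a chondroitin 6-O-sulfotransferase, was at 62.3 ± 5.57 and 98.2 ± 10.5 CPM (log2 fold change 0.66, edgeR FDR 0.00585). Xylt1 and Chst3 passed under all 12 other settings. Chst11, a chondroitin 4-O-sulfotransferase, had a log2 fold change of 0.51 with FDR 0.0344, which was 0.0836 to 0.114 in each fit without 1 library except that without control 2. Chst15, which adds a second sulfate to 4-sulfated units, fell with a log2 fold change of -0.97 (edgeR FDR 0.0188), and its FDR was 0.0568, 0.0513 and 0.0822 without control 1, iSM KO 1 and iSM KO 2. Of 10 keratan sulfate genes 7 were tested, and Chst2, a sulfotransferase for N-acetylglucosamine, rose from 7.09 to 11.1 CPM (edgeR FDR 0.0331) while none fell. For Chst2 the FDR was 0.0749 to 0.158 without control 2, control 3, iSM KO 2 or iSM KO 3.

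Of 15 collagens that form or decorate the fibrils SLRPs bind, 14 were tested, 4 rose and 1 fell, and the median log2 fold change was -0.05. Col14a1, Col12a1, Col6a3 and Col16a1, of the fibril surface and the microfibrils, rose by 2.11, 1.46, 0.68 and 0.35 on the log2 scale. Col3a1, a main fibrillar collagen of arteries, fell by 1.13 on the log2 scale. Col16a1 passed the FDR without control 3 but in none of the other 5 fits without 1 library, where FDR was 0.0725 to 0.148. Of 14 tested genes of collagen processing and crosslinking 2 rose and 1 fell, with a median of 0.05. Adamts14, a procollagen N-proteinase, rose by 1.45 on the log2 scale and Plod2, a lysyl hydroxylase, by 0.34, whereas Adamts2, another N-proteinase, fell by 0.43. Plod2 lost its call without any 1 iSM KO library (FDR 0.0547 to 0.114), and Adamts2 without control 1 or any 1 iSM KO library (FDR 0.0576 to 0.136).

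Of 7 tested proteases that cut SLRPs 1 rose and 2 fell, with a median log2 fold change of -0.29. Mmp14, a membrane-bound metalloproteinase, had a log2 fold change of 0.50 (edgeR FDR 0.0489), Adamts5, an aggrecanase, -0.40 (edgeR FDR 0.0364) and Htra1, a serine protease, -0.29 (edgeR FDR 0.049). Each of the 3 calls was lost without control 1, without iSM KO 1 and without iSM KO 2, with FDRs of 0.0556 to 0.213. Mmp14 was also lost without control 3 (FDR 0.132), Adamts5 without iSM KO 3 (FDR 0.0665) and Htra1 without control 2, control 3 or iSM KO 3 (FDR 0.0764, 0.0846 and 0.131). Of 13 tested receptors and growth factors that SLRPs bind 2 rose and none fell, with a median of 0.06. Tgfb2, a TGF-β ligand, rose by 1.04 on the log2 scale (edgeR FDR 0.0026) and passed under all 12 other settings. Igf1r, the insulin-like growth factor receptor that decorin can bind, rose by 0.34 (edgeR FDR 0.0463), a call that was lost in each of the 6 fits without 1 library.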

How the data were processed

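Aortic RNA from 3 control and 3 iSM KO mice was depleted of ribosomal RNA (RiboErase) and sequenced as 150 bp paired-end reads. The authors mapped reads with DRAGEN to mm10 (Ensembl release 101) and deposited estimated counts per gene, not normalized, of which a part are not whole. The strand setting of the counting is not given in the sources used here. Library totals were 24911609 to 40460467 counts, and floors cover counting error only, whereas the 95% intervals come from the fit and include the spread between mice.

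Counts were rounded. A gene was tested if every library of 1 group or of both exceeded 10 counts, in edgeR 4.0.16 (TMM, quasi-likelihood, two-sided, Benjamini-Hochberg over 16565 genes), R 4.3.3. CPM are TMM-scaled, log2 values used a prior count of 2, and CPM per kb used the longest coding transcript of GENCODE release 21. Neighbour ratios were tested by exact permutation in R, and libraries within a group were compared by chi-square in SciPy 1.17.1. The test was checked on simulated data. Alternatives were no filter, filterByExpr, DESeq2 size factors, DESeq2 1.42.0, limma-voom (limma 3.58.1), a replicate block, a prior count of 0.5, each library left out, and, chosen after seeing the data, merged exon lengths.

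The members and lists were chosen with earlier results of these data known. Named genes were all members, Prdm16, list genes past FDR 0.05 with a fold change over 2 and otherwise up to 2 per direction with the smallest FDR under 0.05, and the 3 genes most like each called member. Xylt2 was named in addition, beside Xylt1. Labels give 3 samples per group, and p-values measure the spread between these samples. All columns were used.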

Additional observations from a re-analysis of the deposited data

How the results depend on the processing

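The 9 tested members were refitted under 12 other settings, and of these 108 values 87 kept their direction and their side of the FDR threshold. Omd had the fewest counts of the tested members, 33 to 278 per library, and Kera at 0 to 1 could not be tested at this depth. The number of members higher past the FDR was 2, and 1 to 2 with a library left out. The number lower past the FDR was 1, but 5 with no filter on low counts (Aspn, Dcn, Fmod, Lum and Omd), 3 with DESeq2 (Aspn, Fmod and Omd), 0 with limma-voom, and 0 to 4 with a library left out. With a fold change over 2 as well it was 1, but 2 with no filter, 2 with DESeq2, 0 with limma-voom, and 0 to 2 with a library left out. The 4 lower members without control 2 were Omd, Aspn, Dcn and Lum. The sign of Bgn reversed without control 1, where its log2 fold change was 0.02, and ranged from -0.29 to 0.02 with a library left out. The Dcn to Lum log2 ratio difference, 0.04, was -0.02 without control 2 and -0.02 without iSM KO 2, with a range of -0.02 to 0.11. The cause of these shifts was not tested. Same-numbered libraries did not deviate together (r of -0.13, -0.05 and -0.11 over 16565 genes). With 3 libraries per group this cannot exclude a pairing, and the labels state none. With a replicate block 457 genes were higher and 318 lower past the FDR, against 705 and 547, and among the members still 2 and 1, with Podn, Prelp and Omd past it. Without iSM KO 1 these counts over all genes were 383 and 241, and without iSM KO 2 they were 313 and 203. With no filter they were 914 and 863. Merged exon lengths, which take in the exons of all isoforms, put Bgn at 548 CPM per kb in controls and 504 in iSM KO, Dcn at 18.4 and 11.8, and Podn at 2.91 and 12.1, and left the other 6 tested members within 1 SD.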
